A study of Mus musculus with 6 samples.

Results

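The p53 pathway and the core machinery of apoptosis were examined in the posterior part of mouse embryos with and without the Splotch mutation. The set held 44 genes. Of these, 33 formed the p53 group, namely Trp53, its relative Trp73, the inhibitors Mdm2 and Mdm4, and 29 transcriptional targets, and 11 formed the apoptotic machinery. A gene entered by its symbol alone, through the discovery probes that carry that name, so no measured value chose it. Of the 44 genes, 41 had a named probe among the 18563 named genes of the array, and 38 were bright enough to be tested among 14332 genes.

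Gene expression was measured on 6 one-colour CodeLink arrays, 3 wild type and 3 Splotch null, at embryonic day 9.5, when embryos had 21.3 somite pairs on average and only the posterior neuropore was still open. Both genotypes carried the strain label LMBc, which the labels did not explain, and they named no Splotch allele and no agent. The tissue was everything caudal to a cut just below the forelimb pit, kept in RNAlater, and the total RNA was amplified into biotin-labelled cRNA. How many embryos went onto an array was not stated. The p-values therefore measure the spread between these samples, which may be partly technical, and the small number of arrays limits the precision of every value.

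p53 is a transcription factor that is held low by Mdm2, a ubiquitin ligase that marks it for degradation, and by Mdm4, which binds its activation domain. When it is stabilised it switches on genes that stop the cell cycle, repair DNA or start apoptosis through BH3-only proteins and Bax, which open mitochondria so that cytochrome c can activate caspases. Splotch disrupts Pax3, a paired-box factor that the dorsal spinal cord, the neural crest and muscle precursors use. Apoptosis precedes the neural tube defects of embryos without Pax3, and loss of p53 is known to rescue those defects. The question put to the arrays was whether the transcripts of p53, of its targets and of the death machinery differed between Splotch null and wild-type tissue.

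p53 binds DNA through pairs of a short palindromic element, the p53 half-site, and Mdm2, Cdkn1a, Ccng1, Gadd45a and Bax are among its most used target genes. The stretches below come from the upstream windows of those genes and of Trp53 itself, from RefSeq on GRCm38.p6. Each is written 5′ to 3′ on the strand of the gene, with the half-site in capitals. They are shown because these genes carry the results that follow, and a match is a description of the letters, not a bound site.
Trp53, chr11:69580259-69580318, plus strand: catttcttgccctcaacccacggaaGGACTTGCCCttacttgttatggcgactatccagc
Mdm2, chr10:117710910-117710969, minus strand: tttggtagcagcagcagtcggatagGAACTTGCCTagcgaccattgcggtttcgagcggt
Cdkn1a, chr17:29090881-29090962, plus strand: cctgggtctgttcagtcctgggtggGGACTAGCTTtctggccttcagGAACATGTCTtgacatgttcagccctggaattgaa
Ccng1, chr11:40755437-40755496, minus strand: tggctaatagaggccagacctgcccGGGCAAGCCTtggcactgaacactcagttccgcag
Gadd45a, chr6:67037413-67037472, minus strand: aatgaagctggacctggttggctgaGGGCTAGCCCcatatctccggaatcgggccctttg
Bax, chr7:45467065-45467124, minus strand: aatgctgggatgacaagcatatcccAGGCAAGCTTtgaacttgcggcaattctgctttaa

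The half-site was searched in the 250 bases before each transcription start, where 1 search covers both strands because the element is its own reverse complement. It lay 65 bases before the start of Trp53, 176 before that of Mdm2, 175 before that of Ccng1, 30 before that of Gadd45a and 191 before that of Bax. The Cdkn1a window held 2 half-sites, 41 and 63 bases before the start. RefSeq windows were matched for 38 of the 44 genes, 51 windows in all, so a gene could have more than 1 start. Each distance is to the start whose window held the match, and whether that is the main start was not tested. In the p53 group, 11 of 27 genes with a window held a half-site, the others being Aen, Ei24, Sesn1, Siva1 and Polk. Over windows that was 29.7% of 37 in the p53 group and 0 of 14 in the apoptotic machinery, against 7.13% of the 32851 RefSeq windows. The absence of a match says only that these letters are not in these windows.

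The arrays differed among themselves in ways that touch these genes. Wild type 1 and Splotch null 3, 1 array of each genotype, had the highest median raw intensity, at 116.3 and 121.1 against 84.3 for the dimmest array. Between 66.1% and 71.7% of probes lay above background, and array medians were 3.87 to 5.72 times the negative controls. The source label called the tissue anterior neural tube, whereas the tissue label and the protocol called it posterior. Of 12 caudal markers, 11 were above background on all 6 arrays, the brightest being T, and of 10 anterior neural tube markers 7 were too, the brightest being Six3, while Otx2 and Emx1 were above background on none. The markers therefore do not settle which label is right. Pax3, the gene mutated in Splotch, had a mean log2 intensity of 10.45 (SD 0.41) over the 3 wild-type arrays and of 10.62 (SD 0.10) over the 3 null arrays, and the exact permutation test (two-sided) gave p = 0.6. Pax3 had 2 named probes, and these values are those of the 1 probe that stood for the gene in the fit. No source used here says where that probe lies relative to the mutation, so it does not check the labels. Marker lists of other tissues were summed on the authors' normalized intensity, in multiples of the array median. Primitive erythroid markers gave 429.4, 329.1 and 340.5 in wild type and 592.6, 639.2 and 326.8 in null tissue. Visceral endoderm and yolk sac markers, of which 5 of 12 were above background on all arrays and Alb on none, gave 25.6, 45.8 and 68.7 in wild type and 30.8, 618.5 and 10.6 in null tissue, so null 2 stood apart. On that array, log2 intensity minus the mean of the other null arrays was -0.99 for Pmaip1, 0.82 for Cdkn1a, 0.58 for Aen and 0.50 for Bax on the log2 scale. Neural tube markers, 8 of 9 above background on all arrays, summed to 96.7, 95.3 and 129.6 in wild type and 108.2, 77.4 and 116.9 in null tissue, lowest on null 2. There log2 intensity minus the mean of the other null arrays was -2.46 for Nkx6-1, -2.16 for Pax6 and -2.16 for Zic1, the lowest of the 9. It was 0.59 for Msx1, the brightest marker of that list, and 0.02 for Wnt1. The part of these differences in tissue in the values above was not tested.

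No gene of the set differed between the genotypes once p-values were adjusted. limma with Benjamini-Hochberg adjustment over all probes called 0 of the 38 tested genes at an adjusted p under 0.05 and 0 of 14332 genes in all, and the adjusted p was 1 for each of the 38. At an unadjusted p under 0.05, 1 of the 38 passed, Gadd45a, a growth arrest and DNA damage gene that was dimmer in Splotch null tissue, against 1.43% of all genes in either direction and 0.426% in the dimmer direction. Gadd45a was also the sole gene of the set whose 3 null arrays all lay apart from the 3 wild-type arrays, which held for 5.1% of the 13762 genes measured on every array and, for null arrays all lower, for 1.89%.

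Brighter and dimmer genes were equally frequent in the set. Differences are given throughout as log2 intensity in Splotch null minus log2 intensity in wild type, and intensities as log2 of the background-subtracted signal plus 50 after quantile normalization. Of the 38 tested genes, 19 were brighter and 19 dimmer in the null tissue. In the p53 group 13 of 29 were brighter, with a median log2 difference of -0.0034 and a range from -0.49 to 0.48. In the apoptotic machinery 6 of 9 were brighter, with a median of 0.0806 and a range from -0.24 to 0.15. Over all 14332 genes, 55.0% were brighter and the median was 0.0171. The 95% interval of the difference lay within 1 log2 unit of 0 for 35 of the 38 genes, the exceptions being Gadd45g, Pmaip1 and Siva1, and within 0.5 for 13. On this scale a change of 2-fold or more thus lay outside the interval for those 35 genes, while smaller changes were not resolved for most.

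**Figure D1:**
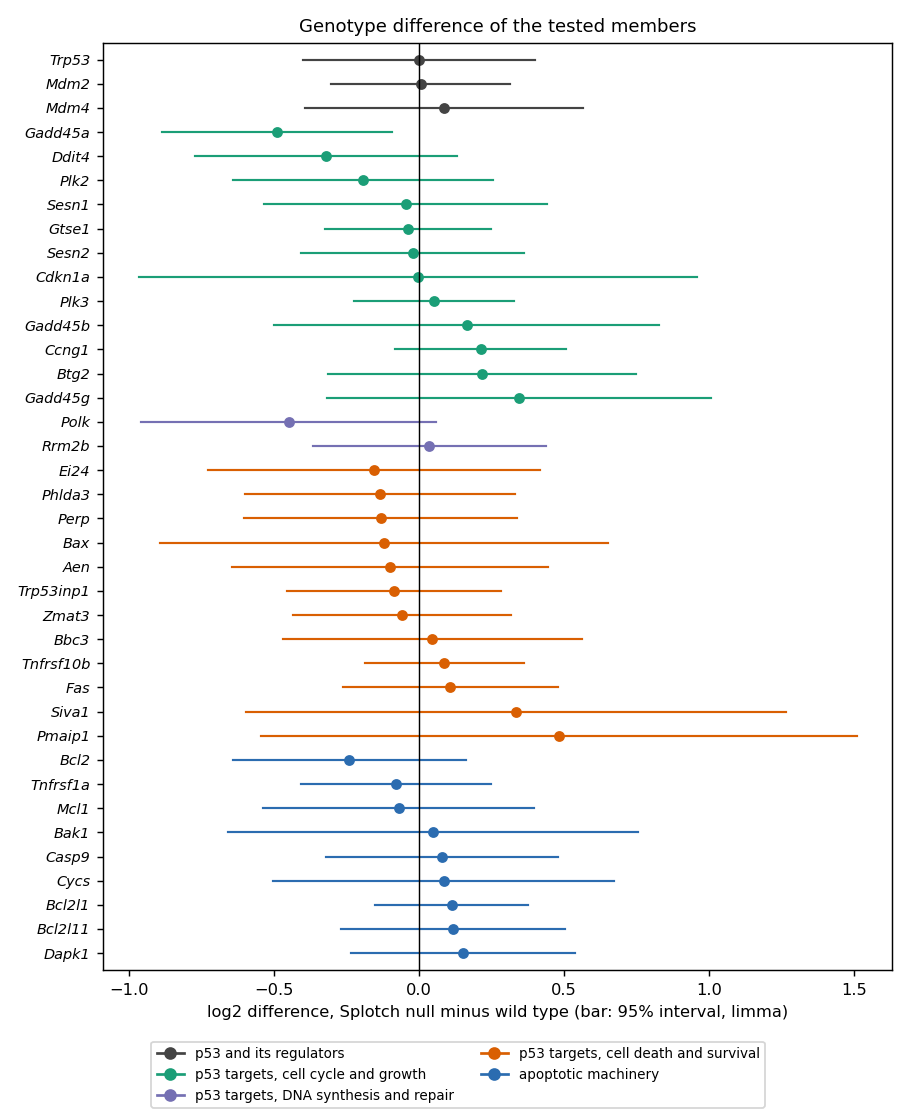
Log2 difference, Splotch null minus wild type, of the 38 tested genes, ordered within their role and coloured by it; points are limma estimates over 3 arrays per genotype and bars their 95% intervals. The interval of Gadd45a, from -0.89 to -0.09, is the sole one of the 38 that does not reach 0.

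p53 itself and its inhibitors Mdm2 and Mdm4 showed no difference beyond the spread between arrays. Trp53 had log2 intensities of 12.58, 12.04 and 12.23 on wild type 1 to 3 and of 12.13, 12.42 and 12.30 on Splotch null 1 to 3. The genotypes overlapped fully, and the log2 difference was -0.0001 (SE 0.17, 95% interval -0.40 to 0.40). Mdm2, which is both the main inhibitor of p53 and one of its targets, gave log2 intensities of 6.85, 6.76 and 6.76 in wild type and 6.87, 6.60 and 6.93 in null tissue. It was a dim probe, at a raw intensity of 41.6 to 87.6, but above background on all 6 arrays, and its log2 difference was 0.0067 (SE 0.13, 95% interval -0.30 to 0.32).

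Mdm4 was read by 2 probes, both above background on every array, that pointed in opposite directions. The brighter probe gave log2 intensities of 9.03, 9.56 and 9.24 in wild type and 9.29, 9.10 and 9.71 in null tissue, a log2 difference of 0.09 (SE 0.20). The dimmer probe had a log2 difference of -0.12, with wild type at 8.65, 8.27 and 8.24 and null tissue at 8.08, 8.25 and 8.48. The genotypes overlapped on both probes. Trp73, which encodes the p53 relative p73, was above background on 1 of 6 arrays and was not tested.

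Among the targets that act on the cell cycle and on growth, 5 of 12 tested genes were brighter and 7 dimmer in Splotch null tissue, with a median log2 difference of -0.0121. The gene with the largest difference was Gadd45a, whose protein binds cell cycle and repair factors after stress. Its log2 intensities were 10.65, 10.54 and 10.68 in wild type and 10.15, 10.42 and 9.83 in null tissue. The wild-type arrays lay within a narrow band and all 3 null arrays lay below it, null 3 furthest. The log2 difference was -0.49 (SE 0.17, 95% interval -0.89 to -0.09), 0.713 times the wild-type level on this scale, with a limma p of 0.0224 before adjustment and 1 after. In the exact two-sided permutation test over the 20 splits of the arrays the p was 0.1, the smallest that 3 against 3 arrays can give.

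The direction of Gadd45a did not rest on 1 array, but whether its unadjusted p lay under 0.05 depended on which array was left out. The log2 difference was negative with each array left out in turn, between -0.63 (Splotch null 2 left out) and -0.34 (Splotch null 3 left out). The unadjusted limma p was 0.0224 with all arrays. It was 0.0536 with wild type 1 left out, 0.0628 with wild type 3, 0.0551 with null 1 and 0.0514 with null 3. With wild type 2 left out it was 0.0425, and with null 2 left out 0.00633. On the authors' normalized intensity it was 0.0718. Each array held RNA from a whole piece of tissue, so fewer cells of a type and less RNA per cell cannot be told apart. Within the null arrays Gadd45a was highest on null 2, the array with the highest visceral endoderm and yolk sac marker sum, 618.5, and lowest on null 3, the array with the lowest, 10.6. Neural crest markers, all 7 above background on every array, summed to 34.6, 42.3 and 42.2 in wild type and 40.2, 38.4 and 29.2 in null tissue, again lowest on null 3. Of the 7, 5 were dimmer in null tissue, where 55.0% of all genes were brighter. An unadjusted limma p under 0.05 was reached by 2 of them, Sox10 with a log2 difference of -1.13 and Tfap2b with -0.39. Both were without overlap. Over all genes 0.426% were dimmer at such a p, and null arrays all lay lower in 1.89%. The part of any of these cells in the Gadd45a result was not tested.

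The paralogs Gadd45g and Gadd45b overlapped between the genotypes. Gadd45g had log2 intensities of 8.69, 8.59 and 9.31 in wild type and 9.51, 9.45 and 8.67 in null tissue. Null 3 lay with the 2 lower wild-type arrays, and the log2 difference was 0.35 (SE 0.28, 95% interval -0.32 to 1.01). Without Splotch null 3 it was 0.62, with an unadjusted limma p of 0.0296, in a fit where 3.89% of all genes had one under 0.05. Gadd45b ran from 7.82 to 8.69 in wild type and from 7.92 to 8.67 in null tissue, a log2 difference of 0.17 (SE 0.28).

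Cdkn1a encodes p21, the cyclin-dependent kinase inhibitor that is the usual readout of p53 activity. Its log2 intensities were 7.83, 8.84 and 8.94 in wild type and 8.75, 9.07 and 7.76 in Splotch null tissue. Each genotype held 1 low array, wild type 1 and null 3, and 2 high ones, and the means were 8.53 in both. The log2 difference was -0.0034 (SE 0.41, 95% interval -0.96 to 0.96), so the interval leaves room for changes of nearly 2-fold either way. The same 2 arrays were low before normalization, with raw intensities of 213 on wild type 1 and 209 on null 3 against 337 to 452 on the other 4.

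Ccng1, which encodes cyclin G1, a target whose protein feeds back on Mdm2, overlapped between the genotypes on a single array. It had log2 intensities of 9.99, 9.94 and 10.15 in wild type and 10.30, 10.31 and 10.12 in null tissue. Null 3 lay just below wild type 3 and the rest of the null arrays lay above all wild-type arrays. The log2 difference was 0.21 (SE 0.12, 95% interval -0.08 to 0.51, limma p of 0.13 before adjustment).

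Ddit4, an inhibitor of the growth kinase mTORC1, had log2 intensities of 9.01, 8.36 and 8.58 in wild type and 8.13, 8.43 and 8.43 in null tissue. Wild type 1 was the highest array and null 1 the lowest, and the rest overlapped, with a log2 difference of -0.32 (SE 0.19). Plk2, a polo-like kinase, had raw intensities of 2190, 1260 and 1140 in wild type and 1090, 1280 and 1580 in null tissue. Wild type 1 alone stood above the other 5 arrays, and the log2 difference of -0.19 (SE 0.19) became 0.0127 without it. Btg2, an antiproliferative gene, had a log2 difference of 0.22 (SE 0.23), with null 3 the highest array at 9.37. The kinase gene Plk3, the sestrins Sesn1 and Sesn2, which restrain mTORC1, and Gtse1, which moves p53 out of the nucleus, spanned -0.045 to 0.0525. Gdf15, a secreted stress cytokine, was above background on 0 of 6 arrays.

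Of the 2 targets for DNA synthesis and repair, Polk, the translesion DNA polymerase kappa, had a lower mean in the null tissue. Its log2 intensities were 9.57 and 9.31 on wild type 1 and 2 and 8.90, 8.76 and 9.32 on Splotch null 1 to 3. Wild type 3 was left out of the Polk fit because the scanner software had marked the spot. Null 3 lay between the wild-type arrays, and the log2 difference over 5 arrays was -0.45 (SE 0.21, 95% interval -0.96 to 0.06, limma p of 0.0738 before adjustment). Without null 3 it was -0.62, with an unadjusted limma p of 0.0105, in a fit where 3.89% of all genes had one under 0.05. Rrm2b, the p53-induced subunit of ribonucleotide reductase, had a log2 difference of 0.04 (SE 0.17).

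**Figure D2:**
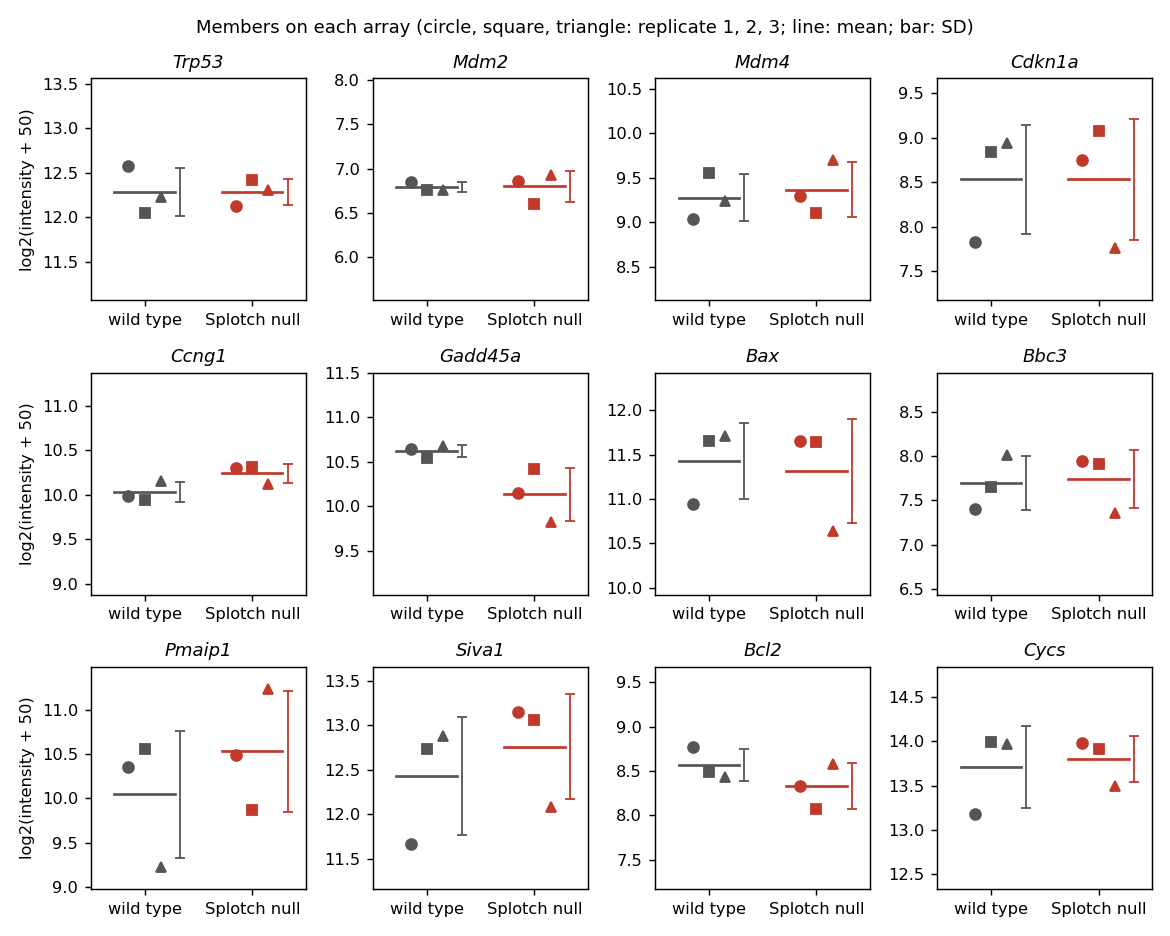
Log2 intensity of 12 genes on each array, wild type in grey and Splotch null in red, with circle, square and triangle for replicate 1, 2 and 3, a line for the mean and a bar for 1 SD; every panel spans the same number of log2 units. Gadd45a shows no overlap, and in Cdkn1a, Bax, Siva1 and Cycs wild type 1 and null 3 lie below the other 4 arrays.

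Of the targets that act in cell death, with 0 at an unadjusted limma p under 0.05, the signs were mixed, with 5 of 12 tested genes brighter and 7 dimmer and a median log2 difference of -0.0717. Bax, the effector that perforates the mitochondrial membrane, had log2 intensities of 10.94, 11.65 and 11.70 in wild type and 11.65, 11.64 and 10.64 in Splotch null tissue. Wild type 1 and null 3 were low and the other 4 arrays lay between 11.64 and 11.70. The log2 difference was -0.12 (SE 0.33, 95% interval -0.89 to 0.65). Leaving out wild type 1 gave -0.37 and leaving out null 3 gave 0.22.

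Bbc3 and Pmaip1 encode the BH3-only proteins Puma and Noxa, through which p53 triggers mitochondrial apoptosis. Bbc3 had log2 intensities of 7.41, 7.65 and 8.02 in wild type and 7.94, 7.92 and 7.36 in null tissue, with the lowest array of each genotype again wild type 1 and null 3 and a log2 difference of 0.05 (SE 0.22). Pmaip1 gave 10.36, 10.55 and 9.23 against 10.49, 9.87 and 11.23. Wild type 3 was the lowest array and null 3 the highest, and the other 4 arrays lay between 9.87 and 10.55. The log2 difference of 0.48 (SE 0.44, 95% interval -0.55 to 1.51) was the largest positive one of the set, and leaving out wild type 3 reduced it to 0.07, whereas leaving out Splotch null 2 gave 0.81.

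Siva1 encodes an adaptor that binds death receptors of the tumour necrosis factor receptor family. Its log2 intensities were 11.67, 12.73 and 12.88 in wild type and 13.15, 13.06 and 12.08 in null tissue. Wild type 1 and null 3 were again the lowest arrays, and the log2 difference was 0.34 (SE 0.40). It was -0.0447 without wild type 1 and 0.69 without null 3. The death receptor genes Fas and Tnfrsf10b had log2 differences of 0.11 (SE 0.16) and 0.09 (SE 0.12).

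Of the remaining death targets, Ei24, an endoplasmic reticulum protein gene, had a log2 difference of -0.15, Perp, a desmosomal gene, -0.13, and Phlda3, an inhibitor of Akt, -0.13. Trp53inp1 stood at -0.08 and the RNA-binding protein gene Zmat3 at -0.06. Aen, the apoptosis-enhancing nuclease, was read by 2 probes above background on all arrays, with log2 differences of -0.10 and 0.14. Standard errors of these genes, taking the brighter Aen probe, ran from 0.16 for Trp53inp1 to 0.24 for Ei24, larger than each difference. Apaf1, the scaffold of the apoptosome, was above background on 1 array, Splotch null 3, and was not tested, and no named probe was used for Eda2r, an ectodysplasin receptor.

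In the apoptotic machinery no gene had an unadjusted limma p under 0.05, and 6 of the 9 tested genes were brighter in null tissue. Bcl2, the founding survival gene of its family, had log2 intensities of 8.77, 8.49 and 8.44 in wild type and 8.34, 8.07 and 8.58 in Splotch null tissue. Null 2 was the lowest array and null 3 lay among the wild-type values, with a log2 difference of -0.24 (SE 0.17, 95% interval -0.64 to 0.16). The survival genes Bcl2l1 and Mcl1 had log2 differences of 0.11 (SE 0.11) and -0.07 (SE 0.20). Bcl2l11, which encodes the BH3-only protein Bim, had 0.12 (SE 0.16).

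Bak1, the effector that acts beside Bax, had log2 intensities of 7.99, 8.70 and 8.76 in wild type and 8.97, 8.64 and 7.99 in null tissue, and Cycs, somatic cytochrome c, had 13.18, 13.99 and 13.96 against 13.98, 13.92 and 13.50. In both genes wild type 1 and null 3 were again the 2 lowest arrays. The log2 differences were 0.05 (SE 0.30) and 0.09 (SE 0.25). Casp9, the initiator caspase of the mitochondrial route, had a log2 difference of 0.08 (SE 0.17), Dapk1, a death-associated kinase, 0.15 (SE 0.16) and Tnfrsf1a, the tumour necrosis factor receptor, -0.08 (SE 0.14). No named probe was used for Casp8, the initiator caspase of the death-receptor route, or for Bid, which links that route to mitochondria.

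Variation across arrays was larger than the genotype difference for most of the set. The 2 arrays of highest median intensity, wild type 1 and Splotch null 3, stood apart in many of the genes above. Their mean log2 intensity minus that of the other 4 arrays was -1.11 for Cdkn1a, -1.08 for Siva1, -0.87 for Bax, -0.77 for Bak1, -0.69 for Gadd45b, -0.62 for Cycs and -0.53 for Gadd45g. It was 0.76 for Pmaip1, 0.60 for Ei24 and 0.52 for Btg2. These pro-apoptotic and growth-arrest genes thus ran in both directions. The split by brightness was chosen after the values were seen and is given as a description, and its cause was not tested.

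This contrast between arrays exceeded 0.5 log2 units in size for 10 of the 38 genes (26.3%), against 17.9% of all genes, while the genotype difference exceeded 0.5 for 0 of the 38 and for 1.03% of all genes. It was larger than the genotype difference in 31 of the 38 (81.6%) and in 76.7% of all genes. The residual SD of Pmaip1 lay at the 97.6th percentile of all tested genes, that of Cdkn1a at the 97th, that of Siva1 at the 96.6th and that of Bax at the 93.6th. At the other end, Bcl2l1 lay at the 2.65th, Tnfrsf10b at the 5.74th and Plk3 at the 6.61st. Bcl2l1 and Tnfrsf10b had raw intensities of 104 to 190 and 154 to 262, above the median of each array. The offset of 50 narrows the log2 spread more at lower intensity, and its part in these values was not tested.

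**Figure D3:**
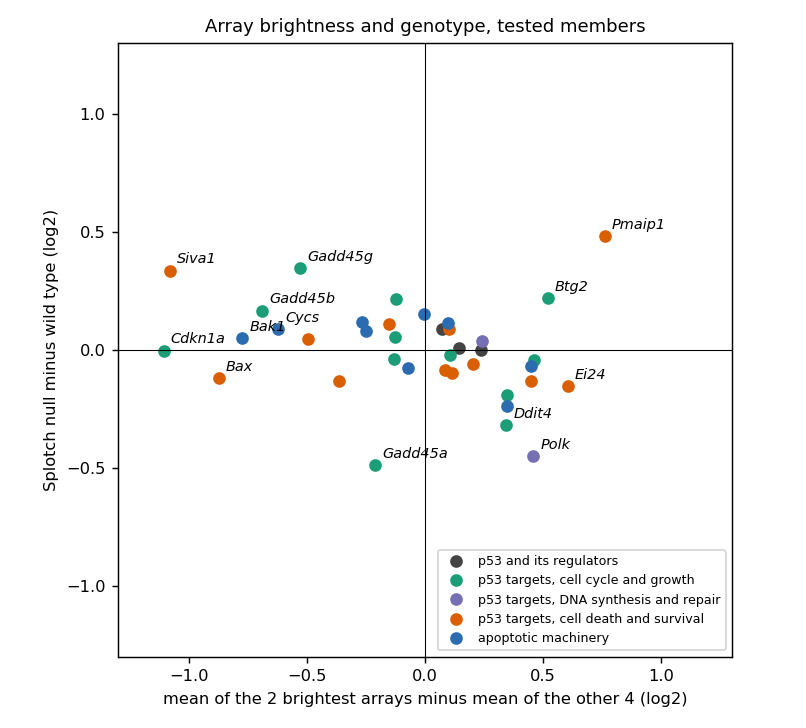
Each point is 1 of the 38 tested genes, coloured by role; the horizontal axis is the mean log2 intensity of the 2 brightest arrays minus that of the other 4, and the vertical axis is the log2 difference, Splotch null minus wild type. Both axes have the same scale, and the points spread further along the horizontal axis, from -1.11 for Cdkn1a to 0.76 for Pmaip1, than along the vertical one, from -0.49 to 0.48.

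Within the brightest pair, null 3 minus wild type 1, the log2 difference of Gadd45a was -0.82, and among the other 4 arrays it was -0.32. Polk gave -0.25 and -0.49, Ddit4 -0.58 and -0.19, Bcl2 -0.19 and -0.26, Ccng1 0.13 and 0.26, and Pmaip1 0.88 and 0.28. Gadd45g gave -0.02 in the pair and 0.53 among the others. The sign was the same in both for 17 of the 38 genes and for 7029 of 14119 genes in all. With the log2 array median as a covariate, an alternative added after seeing the data, the SE of Cdkn1a was 0.16 in place of 0.41 and its log2 difference was -0.09. In the same fit Gadd45a had -0.51 (SE 0.13, limma p of 0.0049 before adjustment) and Pmaip1 0.56 (SE 0.24, p of 0.0493), and 4.73% of all genes had an unadjusted p under 0.05. Without the 2 brightest arrays, the other alternative added then, Gadd45a had -0.33 (SE 0.15, p of 0.0685) and Pmaip1 0.29 (SE 0.44, p of 0.536). In that fit Polk, at -0.49 (p of 0.0333), was the sole gene of the set with an unadjusted p under 0.05, against 3.23% of all genes.

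**Figure D4:**
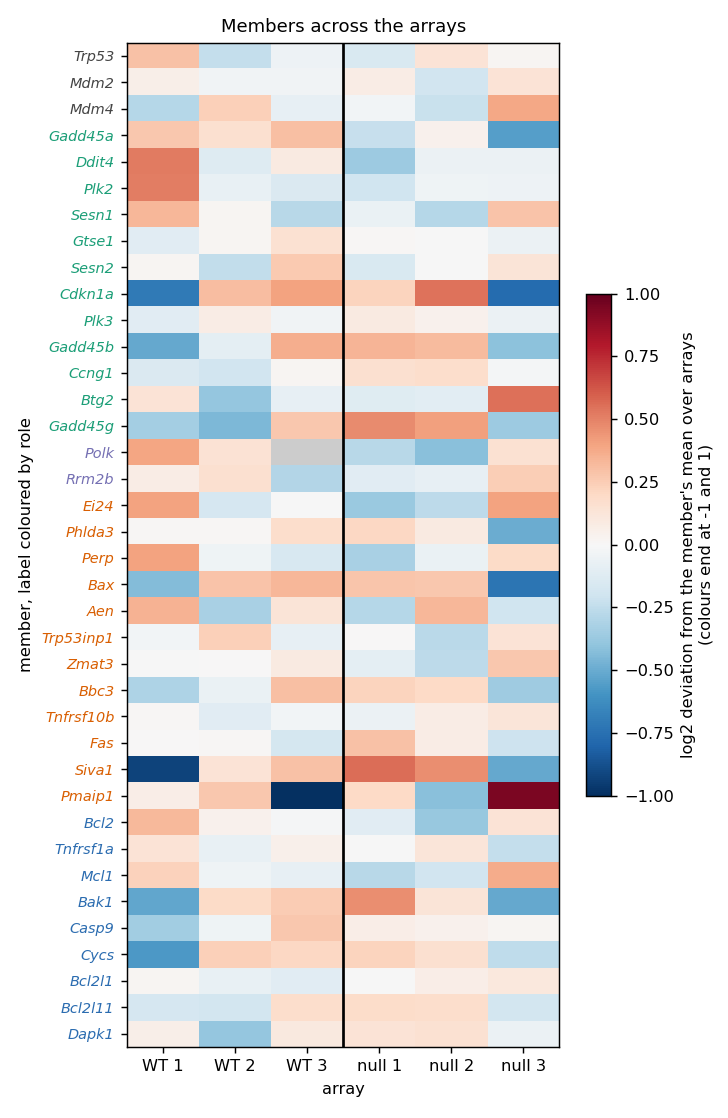
Log2 deviation of each of the 38 tested genes from its own mean over the arrays, with 1 line per gene, labels coloured by role, 1 column per array and grey where a spot was left out (Polk on wild type 3). Wild type 1 and null 3 share blue cells in Cdkn1a, Bax, Siva1, Bak1 and Gadd45b, while no block of genes separates the 3 columns on the left from the 3 on the right.

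No array carried the p53 group as a whole upward or downward. The median deviation of its 28 genes measured on every array from their own means ran from -0.0326 log2 units on null 3 to 0.0182 on null 2. For the 9 machinery genes it ran from -0.062 on null 3 to 0.1224 on null 2. Over all genes the same measure lay between -0.0304 and 0.0324.

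The 11 genes with a half-site in the upstream window had a median log2 difference of -0.045 and a range from -0.49 to 0.34, with 3 brighter in null tissue. The 21 tested genes with a window but no half-site had a median of 0.0525 and 13 brighter. Those 21 include the 9 tested machinery genes, of which 6 were brighter, so the counts differ in gene class as well as in motif. Gadd45a and Polk, both with a half-site, had the lowest differences of the set. Siva1 had the highest of the 11 genes with a half-site. It lay below Gadd45g at 0.35, whose window held none, and Pmaip1 at 0.48, which had no matched window.

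Wider lists of the pathway were counted in the same fit. Of 37 further p53 targets, 27 were tested, 12 were brighter and 0 had an unadjusted limma p under 0.05. The 4 with the smallest p were Sfn, the 14-3-3 sigma gene, at a log2 difference of -0.25 (SE 0.14), Trp53inp2 at 0.20 (SE 0.13), the adenylate kinase Ak1 at 0.20 (SE 0.16) and Trp53i11 at 0.43 (SE 0.39, on 5 arrays). The 3 null arrays of Trp53inp2 all lay above the wild-type arrays. That held for 1 of these 27 genes and for 3.21% of all genes.

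Of 24 upstream regulators and cofactors of p53, 22 were tested and 10 were brighter, against 55.0% of all genes. Over all genes 1.43% had an unadjusted p under 0.05, and 0.426% had one in the dimmer direction. Of the 22, 1 gene had such a p. That gene was Chek2, the checkpoint kinase that phosphorylates p53 after DNA breaks. Its log2 intensities were 10.64, 10.39 and 9.86 in wild type and 9.81, 9.66 and 9.93 in null tissue. Null 3 lay above wild type 3, and the log2 difference was -0.50 (SE 0.21, limma p of 0.0469 before adjustment and 1 after). That p became 0.145 with wild type 1 left out, 0.124 with wild type 2, 0.0958 with null 1 and 0.125 with null 2. With wild type 3 left out it was 0.00397, and with null 3 left out 0.0445. The DNA repair gene Brca1 had a log2 difference of -0.27 (SE 0.13, on 5 arrays), the coactivator Ep300 -0.29 (SE 0.16) and Ppp1r13b, which directs p53 to death genes, 0.18 (SE 0.14).

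Of 43 further genes of the apoptotic machinery, 36 were tested, 20 were brighter and 2 had an unadjusted p under 0.05, both brighter in null tissue, where 1% of all genes were. Bmf, a BH3-only gene, had log2 intensities of 9.65, 9.78 and 9.84 in wild type and 10.28, 10.19 and 10.09 in null tissue. All 3 null arrays lay above all wild-type arrays, the log2 difference was 0.43 (SE 0.12, limma p of 0.00836 before adjustment and 1 after), and it was 0.44 in the brightest pair and 0.43 among the other 4 arrays. Averaged with its second probe the difference was 0.80 (SE 0.42, p of 0.094). Traf2, an adaptor of tumour necrosis factor receptors, had 7.60, 7.25 and 7.27 in wild type and 7.62, 7.75 and 7.75 in null tissue, without overlap, and a log2 difference of 0.34 (SE 0.14, p of 0.0459). Its p was 0.0151 with wild type 1 left out, 0.145 with wild type 2, 0.126 with wild type 3, and 0.0649 to 0.109 with a null array left out. The chaperone regulator Bag1, also without overlap, had 0.29 (SE 0.13), and Birc5, the survivin gene, -0.32 (SE 0.20). Null arrays all lying higher held for 3 of these 36 genes and for 3.21% of all genes.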

How the data were processed

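Per the file headers, CodeLink Expression Analysis 5.0.0.31312 made the deposited reports, which give each spot a raw intensity and one that was divided by the array's global median. Raw values reached -16.6, so background had been subtracted by the authors' software. No genome build is stated for the probe design.

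Spots with a flag other than good, near background or saturated, 277 to 422 per array, were left out. Raw intensity was floored at 0.0119, an offset of 50 was added before log2, and the 34967 discovery probes were quantile-normalized. Log2 differences therefore understate the change of dim genes. The 24466 probes above background on at least 3 of 6 arrays entered limma 3.58.1 (lmFit, eBayes; R 4.3.3), and p-values were adjusted over those probes by Benjamini-Hochberg. The probe with the highest mean stood for a gene. Residual SD is that of this fit. Names came from the platform annotation held by GEO, possibly outdated, brought up to RefSeq symbols (GRCm38.p6) through the gene identifier: 21487 probes were named so, 128 kept the platform symbol, 536 were named by accession, 681 had several names and 12135 none, and the last 2 kinds entered the adjustment only. The fit was tested on simulated data. Marker sums used the authors' normalized intensity, in multiples of the array median.

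Replicates were numbered in accession order, and the numbers pair nothing. The genes and lists were chosen with earlier results of these data known. Values on every array were given for Trp53, Mdm2, Mdm4, Cdkn1a, Ccng1, Bax, Bbc3 and Pmaip1, for the 8 genes of the set with the smallest unadjusted p and for those without overlap between genotypes, and up to 4 genes with the smallest p were named from each wider list. Siva1, Bak1 and Cycs were shown in full after their values were seen, as were the genes named for their variation. Alternatives were 17 planned settings and 2 added after seeing the data. The p53 half-site was searched with Python 3.11.15 and pandas 2.3.3, and figures were drawn with matplotlib 3.10.9.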

Additional observations from a re-analysis of the deposited data

How the results depend on the processing

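Adjusted calls remained at 0 over all genes and over the set under each of the 19 alternatives, with a lowest adjusted p of 0.122, under array weights. Of 50 named genes, 23 kept the sign of their log2 difference in every setting, among them Gadd45a, Gadd45g, Polk, Pmaip1, Ccng1, Ddit4, Bcl2, Bmf and Chek2, and 27 turned in at least 1. The number of genes of the set that were brighter in null tissue, 19 as reported, ran from 18 to 23. In all, 79 of 946 values turned, and the cause was not tested. No paired analysis was possible because the labels carry no replicate numbers.

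The number of genes of the set with an unadjusted p under 0.05, 1 as reported, was 0 on the authors' deposited values, normalized or tabulated, 2 without the filter (Gadd45a and Gdf15, the latter below background on all arrays), 2 with the array median as covariate (Gadd45a and Pmaip1), 1 without the 2 brightest arrays, Polk in place of Gadd45a, and 11 with array weights, where 19.6% of all genes reached it and the weights had not converged. Without the filter 1.82% of all genes reached it. Leaving out 1 array gave 0 to 2. It was 0 without wild type 1, wild type 3 or Splotch null 1, where 1.12%, 2.06% and 0.963% of all genes reached it. It was 2 without Splotch null 3 (Gadd45g and Polk), against 3.89% of all genes. The p53 group's median log2 difference was -0.0292 without the filter, 0.0213 with array weights and -0.0176 to 0.0299 with 1 array left out. That of the machinery was -0.0277 (without wild type 1) to 0.1871 (without wild type 3).

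Turned log2 differences under other scalings and inputs were 0.0536 for Trp53 and 0.0109 for Cdkn1a with median scaling, and 0.0276 for Trp53 with cyclic loess. The authors' normalized intensity gave 0.067 for Trp53, 0.0232 for Cdkn1a and 0.0022 for Gtse1, and the deposited series values 0.0688, 0.0246 and 0.0039. An offset of 200 gave 0.0019 for Cdkn1a. The mean of a gene's probes gave -0.0171 for Mdm4 and 0.0179 for Aen. Array weights gave 0.026 for Trp53, -0.163 for Mdm4, 0.0213 for Cdkn1a, 0.0108 for Sesn2, -0.1846 for Rrm2b, 0.0466 for Bax, 0.1397 for Phlda3 and 0.0329 for Tnfrsf1a. The covariate gave 0.012 for Trp53 and -0.0094 for Bak1. Without the 2 brightest arrays values were 0.1452 for Trp53, -0.0291 for Mdm2, -0.2101 for Mdm4, 0.0268 for Cdkn1a, -0.037 for Rrm2b, 0.1244 for Aen, 0.0571 for Phlda3, -0.0632 for Casp9, 0.0731 for Tnfrsf1a and -0.0336 for Cycs.

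With 1 array left out, log2 differences that turned ran as follows, Trp53 -0.1211 to 0.1499, Mdm2 -0.0586 to 0.1074, Mdm4 -0.0846 to 0.2276, Cdkn1a -0.3567 to 0.3802, Btg2 -0.0041 to 0.3438, Gtse1 -0.1061 to 0.0309, Plk2 -0.3083 to 0.0127, Gadd45b -0.0485 to 0.4103, Sesn1 -0.1979 to 0.1091. For further p53 targets the ranges were Sesn2 -0.15 to 0.1075, Rrm2b -0.0974 to 0.1284, Bax -0.371 to 0.2198, Bbc3 -0.0922 to 0.2312, Perp -0.2632 to 0.0369, Fas -0.012 to 0.2347, Aen -0.2903 to 0.049, Ei24 -0.3955 to 0.01, Siva1 -0.0447 to 0.6881. For the rest they were Trp53inp1 -0.1757 to 0.0299, Phlda3 -0.2714 to 0.0843, Zmat3 -0.2144 to 0.0575, Casp9 -0.0747 to 0.2334, Mcl1 -0.2725 to 0.0538, Bak1 -0.1945 to 0.3203, Tnfrsf1a -0.1559 to 0.0222, Dapk1 -0.001 to 0.2433, Cycs -0.1847 to 0.2405.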
